A study of Mus musculus with 6 samples.

Results

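The thick ascending limb genes were 9 genes that mark or serve this nephron segment: Slc12a1, Umod, Kcnj1, Bsnd, Casr, Ppp1r1a, Cldn10, Cldn16 and Cldn19. They were found by the RefSeq accession of their probes, which gave 10 probes for the 9 genes, of 23785 gene symbols on the array. All 10 probes lay well above background on all 6 arrays. Whole-kidney RNA was measured on 1-colour Agilent arrays from 3 samples labelled Pck1-CKO and 3 labelled WT, all C57BL/6J and 32 weeks old. Pck1-CKO mice were Pck1 flox/flox/γGT-Cre tg/+, so that the knockout of Pck1, the cytosolic enzyme of gluconeogenesis, was directed to the proximal tubule and not to the thick ascending limb. WT mice were littermates matched for age and sex. Control mice of that breeding could carry Pck1 flox/+ with or without γGT-Cre tg/+, or Pck1 flox/flox without the transgene, and the labels do not say which of these each WT sample was.

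The thick ascending limb reabsorbs salt without water, which dilutes the tubular fluid and builds the salt gradient of the medulla. A cotransporter in the apical membrane brings sodium, potassium and chloride into the cell, potassium returns to the lumen through a channel, and chloride leaves on the blood side. The resulting voltage drives sodium, calcium and magnesium between the cells through claudin pores, and the segment secretes uromodulin, the most abundant protein of normal urine.

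Each value is a log2 signal relative to the array's 75th percentile, so 1 unit is a doubling. Signals of different probes are not read as relative amounts of RNA. Sums over genes and differences between genes are compared only between arrays, and shares of a sum are shares of signal. Pck1 itself read 6.44, 6.60 and 6.90 in Pck1-CKO and 6.29, 6.32 and 5.63 in WT, so it was not lower in Pck1-CKO. All 3 Pck1-CKO arrays lay above all WT arrays, a log2 change of 0.56 that did not pass (limma adjusted p = 0.152). Why Pck1 read higher was not tested. The 1 probe of Pck1 may lie outside the deleted part, whose position the labels do not give. It therefore does not check the labels, and all directions are those of the arrays as labelled. Pck1-CKO arrays lay in slide row 2 and WT arrays in slide row 1, so genotype and slide row cannot be told apart. In whole kidney, fewer cells of a type and less RNA per cell cannot be told apart either. The labels do not say that the samples came from separate mice, so each p-value reflects the spread among these samples, which may be technical.

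Of the 9 genes, 2 rose in Pck1-CKO and 0 fell in limma at an adjusted p under 0.05, and without adjustment 4 were higher and 0 lower, where 31.2% of all genes tested had a p under 0.05. Ppp1r1a and Cldn16 passed, each about 1.24-fold higher. Across all 17136 genes tested, 8.04% passed in either direction, with 4.34% higher and 3.7% lower. The share among these genes was 22.2%, which with 9 genes rests on 2 of them. Changes were positive in 7 genes and negative in Casr and Cldn10, with a median log2 change of 0.098 for the 9 genes and 0.0091 for all genes tested. The groups did not overlap in 4 of the 9 genes, 44.4%, against 38.3% of all genes tested. All changes were small: the largest was 0.31 on the log2 scale, and 15.9% of all genes tested changed by more in size. Scaling by the median of each array in place of the 75th percentile gave 2434 higher and 560 lower genes in all, 81.3% of calls higher, against 743 and 634, 54.0% higher. It left both calls in place, and Umod passed as well.

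**Figure D1:**
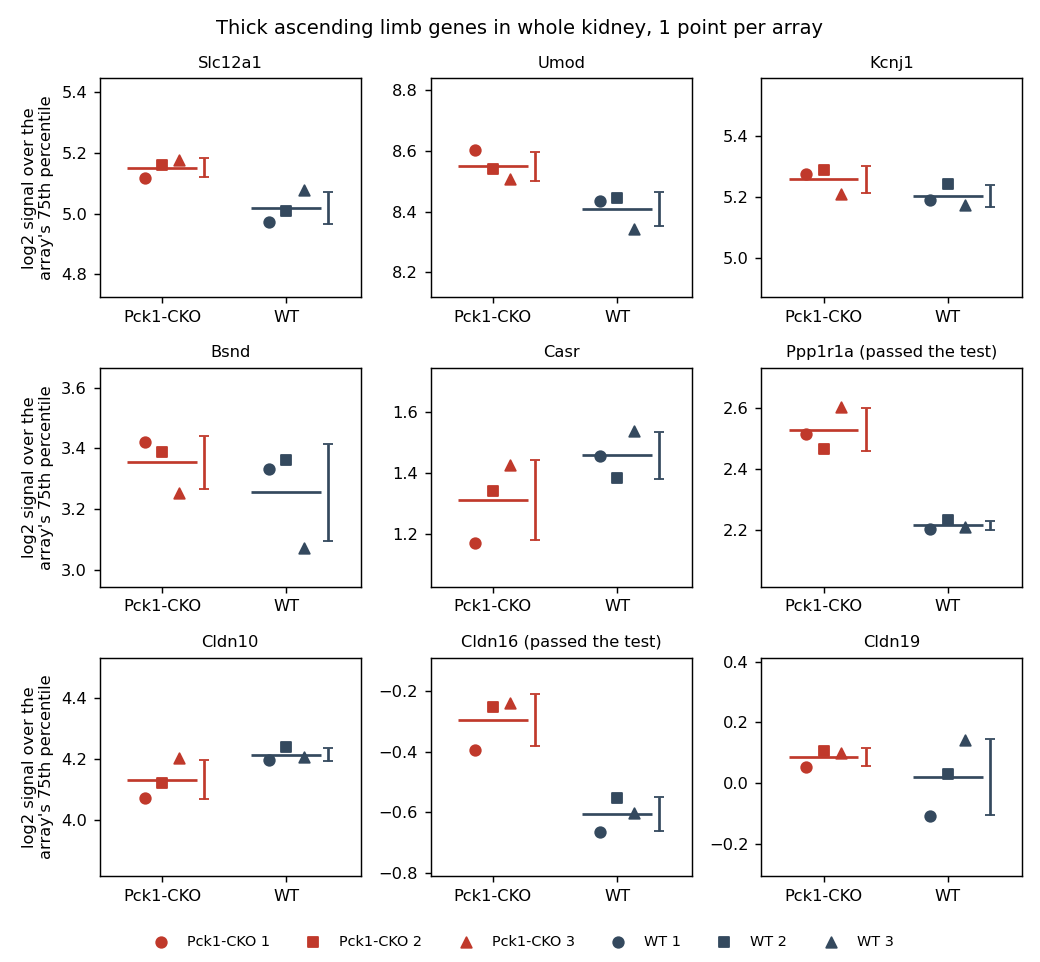
Log2 signal over the array's 75th percentile for the 9 genes, 1 panel per gene, with 3 Pck1-CKO arrays in red to the left of 3 WT arrays in dark blue. Lines are group means, bars are the SD (n = 3), and every panel spans the same height in log2 units. Ppp1r1a, Cldn16, Slc12a1 and Umod show all 3 Pck1-CKO arrays above all 3 WT arrays, and the other 5 genes overlap.

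Promoters of the genes behind these patterns are shown for orientation: Cldn16, which passed, and Slc12a1 and Umod, the segment's defining genes, whose groups were separate. The stretches are from RefSeq (GRCm38.p6), 5′ to 3′ on the strand of the gene, and end at the base before the gene's outermost start. They run from chr16:26462885-26463134 (plus strand) for Cldn16, chr2:125152350-125152509 (plus strand) for Slc12a1 and chr7:119479263-119479512 (minus strand) for Umod. Capitals mark matches to the motifs described after them.
Cldn16: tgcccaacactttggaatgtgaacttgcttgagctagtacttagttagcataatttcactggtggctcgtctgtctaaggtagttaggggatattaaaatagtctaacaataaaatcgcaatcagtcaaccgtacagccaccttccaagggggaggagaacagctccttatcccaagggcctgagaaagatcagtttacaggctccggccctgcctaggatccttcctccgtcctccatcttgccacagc
Slc12a1: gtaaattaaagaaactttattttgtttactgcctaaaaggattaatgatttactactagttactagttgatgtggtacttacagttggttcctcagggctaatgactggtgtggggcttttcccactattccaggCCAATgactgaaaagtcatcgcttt
Umod: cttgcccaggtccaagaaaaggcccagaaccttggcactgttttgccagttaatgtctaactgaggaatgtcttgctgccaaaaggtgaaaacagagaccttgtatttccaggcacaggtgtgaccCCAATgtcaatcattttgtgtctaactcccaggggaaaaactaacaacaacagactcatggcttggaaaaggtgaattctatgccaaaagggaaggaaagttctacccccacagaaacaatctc
The motifs, searched on both strands over the 250 bases before each start, were AAGGTCA (bound by estrogen-related receptors) and CCAAT (the CCAAT box), of which only CCAAT was found in these stretches. Of the 9 genes, 7 had windows in the table, 9 windows in all. CCAAT stood in 4 of them, of Umod, Slc12a1, Kcnj1 and Cldn10, and in 33.8% of all 32851 windows. AAGGTCA was in none of the 9 and in 4.08% of all windows. A match describes letters only, and Cldn16, which passed, holds neither motif.

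Entry of salt across the apical membrane depends on Slc12a1, which encodes the loop-diuretic-sensitive sodium-potassium-chloride cotransporter NKCC2. Slc12a1 read 5.12, 5.16 and 5.18 in Pck1-CKO, against 4.97, 5.01 and 5.08 in WT. The groups did not overlap, and the gap from the lowest Pck1-CKO to the highest WT array was narrower than the range within WT. It changed by 0.13 ± 0.045 on the log2 scale (SE; n = 3 arrays in each group; 95% interval 0.02 to 0.24) and did not pass (limma adjusted p = 0.117). With array weights, 1 of 17 alternatives, Slc12a1 passed at a change of 0.15 (limma adjusted p = 0.0233). Kcnj1 encodes ROMK, the channel that returns potassium to the lumen. Kcnj1 read 5.27, 5.29 and 5.21 in Pck1-CKO, against 5.19, 5.24 and 5.17 in WT. The groups overlapped through WT 2, which exceeded Pck1-CKO 3. For Kcnj1 the log2 change was 0.055 ± 0.044 (limma adjusted p = 0.431), with an interval of -0.053 to 0.16.

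Bsnd encodes barttin, an accessory subunit that channels of the basolateral membrane need to reach the surface. Its signal was 3.42, 3.39 and 3.25 in Pck1-CKO, against 3.33, 3.36 and 3.07 in WT. Replicate 3 was the lowest of each group, and the groups overlapped. The log2 change of Bsnd was 0.098 ± 0.094 (limma adjusted p = 0.514), with an interval of -0.14 to 0.33. Without WT 3, its lowest array, the change was 0.0064.

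Among the claudins, Cldn16 encodes a pore-forming protein of the tight junction needed for paracellular magnesium and calcium uptake. Cldn16 read -0.39, -0.25 and -0.24 in Pck1-CKO, against -0.66, -0.55 and -0.60 in WT. The groups were separate, with Pck1-CKO 1 the lowest of its group. Cldn16 rose by 0.31 ± 0.06 on the log2 scale, 1.24-fold (limma adjusted p = 0.0408). Cldn19 encodes the claudin that assembles with claudin-16. Its values were 0.053, 0.11 and 0.099 in Pck1-CKO, against -0.11, 0.029 and 0.14 in WT. WT 3 was above every Pck1-CKO array and WT 1 below all of them. The log2 change of Cldn19 was 0.065 ± 0.071 (limma adjusted p = 0.565) and turned to -0.0069 with normexp. Without WT 1 it was 0.00035.

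Cldn10 encodes a claudin whose kidney form in this segment passes sodium between the cells. Cldn10 read 4.07, 4.12 and 4.20 in Pck1-CKO, against 4.20, 4.24 and 4.21 in WT. Pck1-CKO 3 reached the level of WT 1, while the other Pck1-CKO arrays lay below all WT arrays. The log2 change was -0.082 ± 0.048, with limma adjusted p = 0.293 and an interval of -0.20 to 0.036. It was -0.052 without Pck1-CKO 1. Within each array the log2 signal of Cldn16 minus that of Cldn10 was -4.47, -4.37 and -4.44 in Pck1-CKO, against -4.86, -4.79 and -4.81 in WT. The groups were separate, and the 2 genes differed in their log2 change by 0.39. An exact permutation test over the samples, 2-sided, gave p = 0.1, the smallest that 3 against 3 allows, and 0.15 adjusted over the 3 pairs of genes compared.

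**Figure D2:**
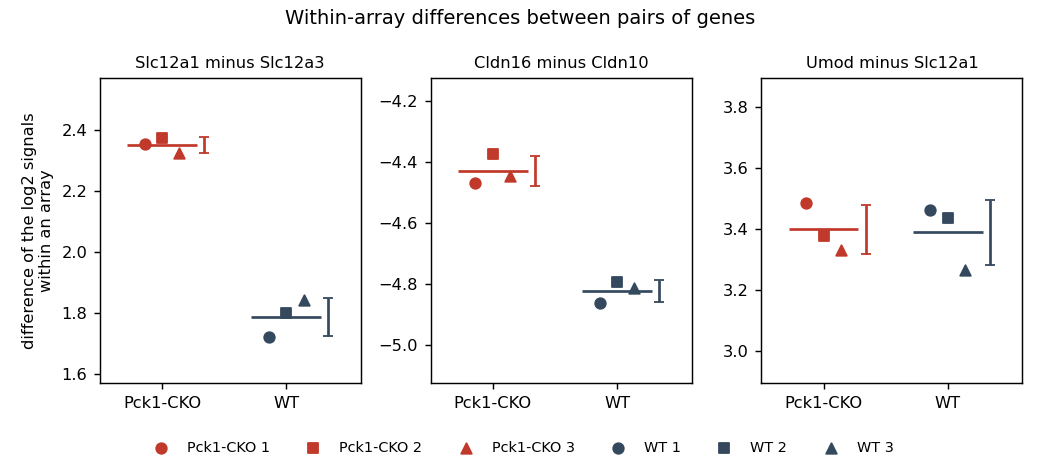
Difference of the log2 signals of 2 genes within each array, for the 3 pairs compared, with Pck1-CKO in red to the left of WT in dark blue. Lines are group means and bars the SD (n = 3). The groups are separate for Slc12a1 minus Slc12a3 and for Cldn16 minus Cldn10 and overlap for Umod minus Slc12a1.

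Casr encodes the calcium-sensing receptor, which on the blood side of these cells restrains the reabsorption of calcium. It has 2 probes. The brighter probe read 1.17, 1.34 and 1.43 in Pck1-CKO, against 1.46, 1.38 and 1.54 in WT. Pck1-CKO 3 lay above WT 2, so the groups overlapped. The log2 change was -0.15 ± 0.081 (limma adjusted p = 0.273), with an interval of -0.35 to 0.054. Leaving out 1 array at a time gave -0.20 to -0.075, the smallest size without Pck1-CKO 1. The dimmer probe read -2.70, -2.83 and -2.77 in Pck1-CKO, against -2.68, -2.72 and -2.72 in WT, a log2 change of -0.063 ± 0.052. Both probes had a negative change, and neither passed.

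Ppp1r1a encodes inhibitor 1 of protein phosphatase 1, which is switched on by the cAMP-dependent kinase. Ppp1r1a read 2.52, 2.47 and 2.61 in Pck1-CKO, against 2.20, 2.23 and 2.21 in WT. The WT arrays lay close together, with an SD of 0.015 against 0.07 in Pck1-CKO, and the groups were separate. Ppp1r1a rose by 0.31 ± 0.048 on the log2 scale, 1.24-fold (limma adjusted p = 0.0294). Markers of fat cells changed in the same direction. The summed signal of the adipocyte markers, in multiples of the array's 75th percentile, was 67.6, 65.4 and 87.4 in Pck1-CKO, against 13.6, 22.8 and 21.8 in WT, and 3 of 7 of them rose. All 7 changes were positive, the smallest 0.037 for Lep (limma adjusted p = 0.815). Pck1-CKO 3 was the highest array for both Ppp1r1a and this sum, and Pck1-CKO 2 the lowest of its group for both. Within WT the sum varied far more than Ppp1r1a. Its log2 values relative to the WT mean were -0.51, 0.23 and 0.17, where Ppp1r1a read 2.20, 2.23 and 2.21. The probe of Fabp4 alone gave 48.1% to 92.1% of the sum. Within Pck1-CKO, Ucp1 was lowest in array 3 and Fabp4 in array 1, while the other markers ordered as Ppp1r1a did. The part of fat cells in the change of Ppp1r1a was not tested.

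Umod encodes uromodulin. It was very bright, with 388.4, 371.9 and 363.6 times the array's 75th percentile in Pck1-CKO, against 345.9, 348.6 and 324.7 in WT, and 0 spots were saturated. On the log2 scale this was 8.60, 8.54 and 8.51 in Pck1-CKO, against 8.43, 8.45 and 8.34 in WT. The groups did not overlap, and WT 3 was the lowest array. The log2 change was 0.14 ± 0.049, with limma adjusted p = 0.121 and an interval of 0.019 to 0.26. The within-array difference of Umod minus Slc12a1 was 3.40 ± 0.079 in Pck1-CKO and 3.39 ± 0.11 in WT (SD, n = 3 each). The 2 genes' changes differed by 0.0099, with exact permutation p = 0.9, 2-sided, and 0.90 adjusted over the 3 pairs.

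The arrays did not order the 9 genes alike. WT 1 was the lowest array for 4 genes, Slc12a1, Ppp1r1a, Cldn16 and Cldn19. WT 3 was the lowest for Umod, Kcnj1 and Bsnd, and Pck1-CKO 1 for the 2 genes with a negative change, Casr and Cldn10. The highest array was Pck1-CKO 3 for Slc12a1, Ppp1r1a and Cldn16. It was Pck1-CKO 1 for Umod and Bsnd, and Pck1-CKO 2 for Kcnj1. For Casr and Cldn19 it was WT 3, and for Cldn10 WT 2.

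Neither call held in all of the fits that each left out an array. Without Pck1-CKO 1, Pck1-CKO 2, WT 1 or WT 2, the number of the 9 genes past the threshold was 0 each time, with 16 to 39 genes higher and 9 to 31 lower among all genes tested. Without Pck1-CKO 3 or WT 3 it was 1, Ppp1r1a. The sizes moved little: over the 6 fits that each left out an array, the log2 change of Ppp1r1a was 0.28 to 0.35 and its limma adjusted p at most 0.103. For Cldn16 the change was 0.28 to 0.36, and the limma adjusted p was at most 0.148. The calls described next for Klhl3, Avpr2, Dnajb11, Pdia3, Pdia6, Defb1 and Slc12a3 were also lost without each of those 4 arrays and with the replicate block. Without the filter on dim probes, all of these calls but that of Slc12a3 (limma adjusted p = 0.0452) were lost as well. That of Avpr2 was also lost without Pck1-CKO 3. Their highest limma adjusted p over the 17 alternatives was 0.0801 for Klhl3 and Slc12a3, 0.107 for Defb1, 0.118 for Dnajb11 and Pdia6, 0.119 for Pdia3 and 0.142 for Avpr2.

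The other genes that serve the segment were read from a list of 63, of which 62 were tested. Wnk3, the gene of a WNK kinase, stayed out because no array showed it well above background. Of the 62, 4 rose and 2 fell, 9.68%, against the 8.04% of all genes tested. Their median log2 change was 0.035.

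Of 9 partners in salt transport, 0 passed in limma, and 0 were higher and 2 lower without adjustment. Among 10 tested regulators of the cotransporter, Klhl3 fell and the other 9 did not pass. Klhl3 encodes the adaptor through which WNK kinases are marked for breakdown. It read -4.02, -4.15 and -3.87 in Pck1-CKO, against -3.29, -3.25 and -3.36 in WT. The groups were separate, and the log2 change was -0.71 ± 0.081 (limma adjusted p = 0.0189). Klhl3 was dim, and the change was -0.34 with normexp, which adds an offset that compresses dim values. Of 7 markers of the distal convoluted and connecting tubule, 3 fell as well, and all 7 changes were negative. Their part in the change of Klhl3 was not tested.

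Of 9 genes of hormone receptors and the cAMP pathway, Avpr2 rose and the other 8 did not pass. Avpr2 encodes the vasopressin receptor that raises cAMP in the thick ascending limb and in the collecting duct. It read 1.72, 1.73 and 1.66 in Pck1-CKO, against 1.04, 1.01 and 1.38 in WT. WT 3 lay nearest to the Pck1-CKO arrays, and the groups were separate. The log2 change of Avpr2 was 0.56 ± 0.11 (limma adjusted p = 0.0398). The summed signal of markers of collecting duct principal cells, which also carry this receptor, was 43.4 to 44.9 in Pck1-CKO and 31.5 to 38.6 in WT. That sum came mostly from the probes of Aqp2 and Aqp3, both water channel genes. Of the 5 markers only Aqp2 rose, by 0.63 on the log2 scale (limma adjusted p = 0.0192). Aqp3 changed by 0.28, Scnn1g by 0.048, Hsd11b2 by -0.047 and Scnn1b by -0.26, with a median of 0.048 for the 5. The 4 markers other than Aqp2 did not pass. Their part in the change of Avpr2 was not tested. Ptger3, a prostaglandin E2 receptor gene of this segment, changed by -0.074 ± 0.089 (limma adjusted p = 0.608).

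Of 10 genes of the tight junction and of divalent cation handling, 0 passed in limma, and 0 had an unadjusted p under 0.05. The lowest p was that of the claudin gene Cldn8, with a log2 change of 0.24 ± 0.12 (limma adjusted p = 0.215). Egf, whose product is a growth factor that stimulates magnesium uptake, changed by 0.035 ± 0.061 (limma adjusted p = 0.725). Egf read 6.98, 7.03 and 7.18 in Pck1-CKO, against 7.02, 7.04 and 7.02 in WT, with Pck1-CKO arrays on both sides of the WT values.

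In the list of 7 genes of uromodulin processing and cargo, 3 rose and 4 did not pass. The share higher was 42.9%, against 4.34% of all genes tested, and with 7 genes it rests on 3 of them. The 3 encode general folding factors of the endoplasmic reticulum, which every secretory cell uses. Dnajb11, a co-chaperone gene, rose by 0.27 ± 0.038 on the log2 scale (limma adjusted p = 0.0268). Pdia3 rose by 0.26 ± 0.039 and Pdia6 by 0.26 ± 0.039, both disulfide isomerase genes (limma adjusted p = 0.0286 and 0.0294). All 3 genes had separate groups: Dnajb11 read 3.57, 3.55 and 3.51 in Pck1-CKO, against 3.26, 3.29 and 3.27 in WT. The 4 that did not pass changed by 0.18 (Hspa5), 0.075 (Hpn), 0.051 (Mal) and -0.067 (Sec63).

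Of 8 transcription factor and coactivator genes of the segment, 0 passed in limma, and 0 were higher and 1 lower without adjustment. The lower one was Ppargc1a, a coactivator of mitochondrial genes, with a log2 change of -0.20 ± 0.063 (limma adjusted p = 0.097). Pou3f3, which is needed to form the segment, changed by -0.037 ± 0.078 (limma adjusted p = 0.782).

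Of 9 further marker genes, 1 fell and 8 did not pass. This was Defb1, the gene of a beta-defensin made along the distal nephron. Defb1 read 5.16, 5.21 and 5.17 in Pck1-CKO, against 5.55, 5.55 and 5.45 in WT. The groups were separate, and the log2 change was -0.34 ± 0.046 (limma adjusted p = 0.0255).

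**Figure D3:**
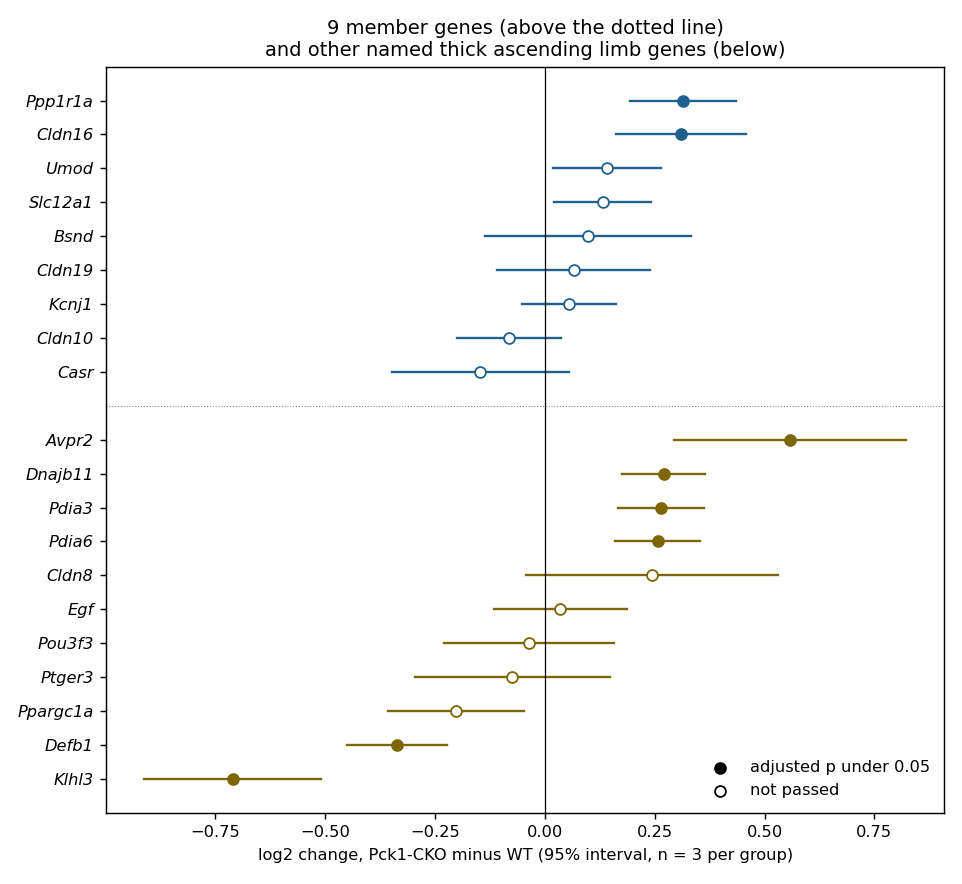
Log2 change of Pck1-CKO minus WT with its 95% interval (n = 3 per group) for the 9 genes, above the dotted line, and for 11 other named genes of the segment, below it. Filled points passed at a limma adjusted p under 0.05. Among the 9 genes the filled points are Ppp1r1a and Cldn16, both at 0.31.

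The next segment downstream, the distal convoluted tubule, is marked by Slc12a3, which encodes the thiazide-sensitive cotransporter. Slc12a3 read 2.76, 2.79 and 2.85 in Pck1-CKO, against 3.25, 3.21 and 3.23 in WT, a log2 change of -0.43 ± 0.042 (limma adjusted p = 0.0152). Of the 7 markers listed for this segment and the connecting tubule, Slc8a1 and Trpv5 also fell (log2 change -0.66 and -0.32), and 4 did not pass. The summed signal of the 7 overlapped, at 267.9 to 299.7 in Pck1-CKO and 292.3 to 315.5 in WT. The probe of Klk1, which changed by -0.013, gave 71.8% to 76.5% of that sum. Within each array Slc12a1 minus Slc12a3 was 2.35, 2.37 and 2.32 in Pck1-CKO, against 1.72, 1.80 and 1.84 in WT. All 3 Pck1-CKO arrays lay above all WT arrays. The 2 cotransporter genes differed in their log2 change by 0.56, with exact permutation p = 0.1, 2-sided, the smallest possible, and 0.15 adjusted over the 3 pairs.

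Markers of 10 other cell types or segments were summed per array, in multiples of its 75th percentile, to show what moved beside the 9 genes. In 7 of the 10 the groups were separate, 3 higher and 4 lower in Pck1-CKO. The higher ones were the adipocyte and principal cell sums given above and that of the thin limb and inner medulla, at 152.0 to 163.7 in Pck1-CKO and 138.6 to 146.9 in WT. The intercalated cell sum was 41.3 to 41.6 in Pck1-CKO and 54.3 to 58.1 in WT. The podocyte sum was 21.7 to 23.6 in Pck1-CKO and 25.9 to 28.3 in WT. The endothelial sum was 35.0 to 37.9 in Pck1-CKO and 39.1 to 40.0 in WT, and that of immune cells 3.67 to 3.89 in Pck1-CKO and 4.08 to 4.53 in WT. Proximal tubule markers, of the cells in which Pck1 was targeted, overlapped, at 655.9 to 672.5 in Pck1-CKO and 619.5 to 671.3 in WT. The part of the cell makeup of the samples in the changes of the 9 genes was not tested.

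**Figure D4:**
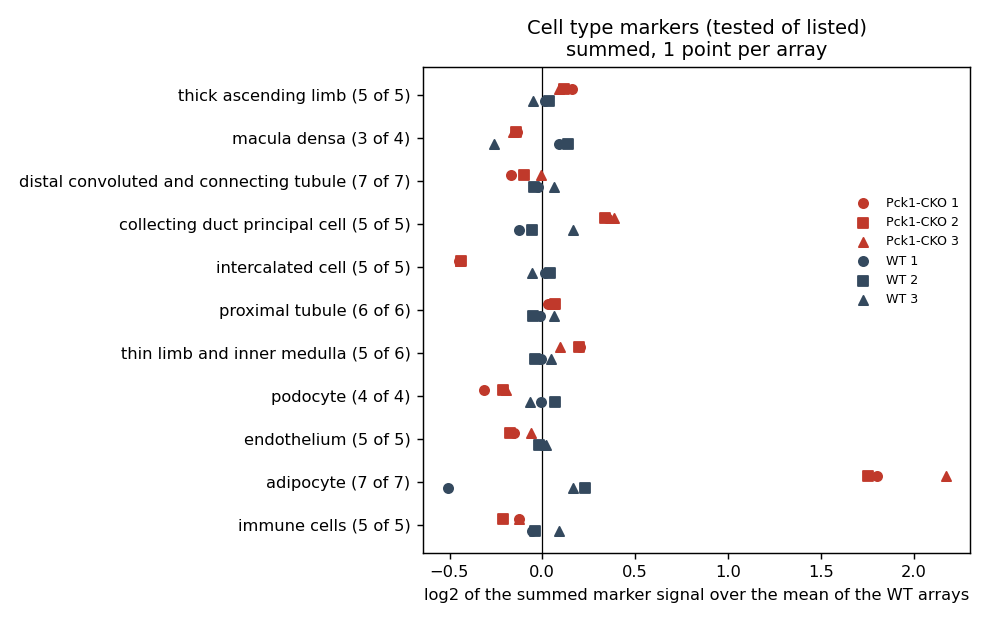
Summed signal of each marker list relative to the mean of the 3 WT arrays, on a log2 axis, with 1 point per array, Pck1-CKO in red above WT in dark blue. Counts in brackets are the markers tested of those listed. The thick ascending limb sum, whose 5 markers are all among the 9 genes, restates their values and lies slightly to the right in Pck1-CKO. The intercalated cell sum lies to the left, and the adipocyte sum far to the right.

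Genes whose pattern over the 6 arrays was most like that of Slc12a1, by Pearson correlation of log2 signals among 15553 named genes, were Tmed2 (r = 0.999), Trim16 (r = 0.998) and Nmrk1 (r = 0.998). Those most like Cldn16 were Pgam5 (r = 0.998), Elp2 and Ccnyl1 (both r = 0.997). Ppp1r1a was most like Pparg (r = 0.999), the master regulator of fat cell differentiation, and Sf1 (r = 0.997). Pparg read 0.36, 0.24 and 0.63 in Pck1-CKO, against -0.61, -0.54 and -0.56 in WT, with the same order of arrays within Pck1-CKO as Ppp1r1a. These values are descriptions: with 6 arrays that share the difference between genotypes, 434 genes exceeded r = 0.95 for Slc12a1, 359 for Cldn16 and 285 for Ppp1r1a.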

How the data were processed

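Total RNA of 6 kidney samples was labelled with Cy3, per the labels. The authors scanned the arrays with Agilent Feature Extraction 10.7.1.1, named in the submitters' processing notes. Its files give the intensity of each spot, and the processed signal had background and spatial trends removed, per the file headers. A second deposited table gives a linear ratio, each probe's mean processed signal over 1 factor per array.

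Spots with an outlier flag (46 to 94 per array) were left out, the mean log2 signal of a probe's spots was taken, and from it the 75th percentile of the array (528.9 to 583.1 in signal) was subtracted. Probes were named by RefSeq accession (GRCm38.p6 table): 34675 of 56605 had 1 symbol. Between 37116 and 38708 probes per array lay well above background. The number of arrays, 3 per group, limits precision. Probes well above background on at least 3 arrays were kept, and the brightest stood for a gene. limma 3.58.1 in R 4.3.3 (lmFit, eBayes, 2-sided) tested Pck1-CKO against WT over 17136 genes, with p-values adjusted after Benjamini and Hochberg and called under 0.05. Errors are its standard errors, and intervals are at 95%. The procedure was tested on simulated data, but with planted changes larger than any of the thick ascending limb genes showed. It therefore does not speak to changes of their size. No coordinates of probes are given, since the array design used another build.

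The genes, lists and pairs were chosen with earlier results of these data known. Named were the 9 genes, the other listed genes past the threshold, chosen partners (including Ptger3, Egf and Pou3f3), the lowest p of a list where none passed, and the 3 genes most like Slc12a1 and each called gene. Some results under these rules are not reported here. Alternatives covered scaling, background correction, the deposited ratio, the filter, probe choice, variance model, array weights, flags, a replicate block and left-out arrays.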

Additional observations from a re-analysis of the deposited data

How the results depend on the processing

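No alternative gave a negative change for Ppp1r1a, Cldn16, Slc12a1, Umod, Kcnj1 or Bsnd, or a positive one for Casr or Cldn10, over 17 alternatives. Ppp1r1a and Cldn16 both passed under quantile normalization, median scaling, normexp, the deposited ratio, the filter on all 6 arrays, the mean of probes, the intensity trend, array weights and kept outlier spots. They missed the threshold without a filter on dim probes (limma adjusted p = 0.0741 and 0.0933). Counts of all genes higher and lower moved to 61 and 81 without the filter, where 23781 genes were tested and 0 of the 9 passed, to 1689 and 1133 with the trend, to 3285 and 2614 with array weights, and to 2434 higher with median scaling. The median change of the 9 genes was 0.063 with quantile normalization and 0.17 with median scaling. Leaving out an array each time gave 16 to 779 genes higher, 9 to 806 lower, 0 to 1 of the 9 genes higher and a median of 0.081 to 0.13. Umod minus Slc12a1 was then -0.051 to 0.046. With the sample number as a replicate block, 3 genes were higher and 1 lower, and 0 of the 9 passed (limma adjusted p = 0.083 for Ppp1r1a and 0.0773 for Cldn16). The numbers share only the slide column, and deviations of same-numbered arrays correlated at -0.00097, -0.11 and -0.023. Signs turned only for genes that did not pass: Cldn19 was -0.0069 with normexp, Ptger3 0.0021 with median scaling and -0.13 to 0.018 on leaving out an array, Pou3f3 0.039 with median scaling and -0.11 to 0.028, and Egf -0.023 to 0.079. The causes were not tested.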

Other observations

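Macula densa cells sit at the end of the thick ascending limb, where they sense salt. Of 4 of their markers, 3 were tested, since no array showed Ptgs2 well above background. Pappa2, the gene of a protease that releases insulin-like growth factors, was singled out after its values were seen. It read -3.49, -3.07 and -3.61 in Pck1-CKO, against -4.42, -4.25 and -4.19 in WT, and the groups were separate. Its log2 change was 0.90 ± 0.15 (limma adjusted p = 0.0348), and 0.24 with normexp, whose offset compresses dim values such as these. The call was lost in 7 of 17 alternatives (limma adjusted p at most 0.107). Nos1 had a log2 change of 0.0079 and Avpr1a one of -0.16, and neither passed (limma adjusted p = 0.982 and 0.37). The summed signal of the 3 markers overlapped, at 2.98 to 3.03 in Pck1-CKO and 2.78 to 3.66 in WT, and the probe of Avpr1a gave 95.5% to 98.1% of it.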
